A study of Mus musculus with 7 samples.

Results

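The acute phase proteins of the liver were followed here as 10 genes, Saa1, Saa2, Saa4, Orm1, Orm2, Hp, Hpx, Lcn2, Crp and Fgb, chosen by their symbols among the 51426 genes of the count tables. Liver mRNA was sequenced from 3 wild type (WT) mice and 4 mice with a whole body knockout of TET1 (TET1 KO), an enzyme that oxidizes methylated cytosine in DNA. All 7 mice were male, the labels give C57BL/6J as the strain of both groups, and all had been fed with a high fat diet (HFD) for 16 weeks, which by the methods began at 8 weeks of age and drew 60% of its calories from fat. The study writes the sequenced mice as TET1-/- and TET1wt/wt, its notation for the line B6;129S4-Tet1tm1.1Jae/J and the controls of that line, and it writes another whole body line, made with a β-actin Cre and a floxed TET1, in a different way. The labels name no line. No livers of mice on a normal diet and no livers of mice given an inflammatory stimulus were analysed here. The comparison asks whether the liver transcripts of the acute phase response differ between the genotypes under the HFD.

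Acute phase proteins are plasma proteins that hepatocytes make in larger amounts (positive) or smaller amounts (negative) during infection, injury and inflammation. The cytokine IL-6 acts on hepatocytes through its receptor and gp130 to activate the transcription factor STAT3, and IL-1 and TNF act through NF-κB, while C/EBP factors bind many of the promoters. In mice the serum amyloid A proteins are the most inducible members, whereas CRP, the classical human marker, responds little.

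None of the 10 genes differed between the genotypes by edgeR's quasi-likelihood test at an adjusted p under 0.05, which 2.02% of all tested genes passed, and the spread among mice of one genotype was the main feature of the data. Lcn2 had the widest spread within a genotype of all 14754 tested genes, and Saa2, Saa1 and Orm2 ranked 3, 5 and 6. WT replicate 3 had the highest level of all 10 genes, and TET1 KO replicate 1 had the lowest level of 8. WT replicate 3 was the highest of the 7 livers in 10.1% of tested genes, so this liver did not stand apart in general. TET1 KO replicate 1 was the lowest liver in 25.3% and the highest in 25.6% of tested genes, and WT replicate 2 the highest in 25% and the lowest in 26%, so these livers stood apart beyond the acute phase genes. The fold change of each member is given with and without WT replicate 3.

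The promoters of the members are shown first, since the factors named above act there. The sequences are the 250 bases before the start of each gene in RefSeq (GRCm38.p6), and 8 of the 10 members were matched. Orm1 and Hp had no entry in the set of promoter sequences used here, although RefSeq gives coordinates for both genes. Capitals mark matches to 4 motifs searched on both strands: TTCNNNGAA for STAT3, CTGGGAA for the type II IL-6 element, TTGCNNAA for C/EBP and, for NF-κB, GGG and TTCC separated by any 3 bases. Saa1 and Saa2, the most inducible pair, lie head to head on chromosome 7, at chr7:46742981-46743230 on the minus strand and chr7:46751583-46751832 on the plus strand. Orm2 (chr4:63362199-63362448, plus strand) and Lcn2 (chr2:32387740-32387989, minus strand) are the other members with a very wide spread. Fgb (chr3:83049864-83050113, minus strand) and Crp (chr1:172697806-172698055, plus strand) are shown as members with a narrow one.
Saa1: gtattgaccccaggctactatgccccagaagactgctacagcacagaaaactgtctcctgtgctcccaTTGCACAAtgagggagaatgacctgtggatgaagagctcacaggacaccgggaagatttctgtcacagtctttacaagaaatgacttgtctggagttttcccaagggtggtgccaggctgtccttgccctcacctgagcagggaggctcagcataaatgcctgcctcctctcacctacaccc
Saa2: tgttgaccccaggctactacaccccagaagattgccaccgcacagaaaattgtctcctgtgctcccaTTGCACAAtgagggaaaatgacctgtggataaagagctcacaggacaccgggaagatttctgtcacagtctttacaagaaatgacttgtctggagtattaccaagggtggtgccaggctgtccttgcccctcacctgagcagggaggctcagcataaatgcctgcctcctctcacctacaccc
Orm2: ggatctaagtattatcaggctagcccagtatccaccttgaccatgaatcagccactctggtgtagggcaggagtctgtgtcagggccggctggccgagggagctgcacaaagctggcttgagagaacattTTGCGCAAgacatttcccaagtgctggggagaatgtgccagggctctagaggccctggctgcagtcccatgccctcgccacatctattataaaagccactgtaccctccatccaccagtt
Lcn2: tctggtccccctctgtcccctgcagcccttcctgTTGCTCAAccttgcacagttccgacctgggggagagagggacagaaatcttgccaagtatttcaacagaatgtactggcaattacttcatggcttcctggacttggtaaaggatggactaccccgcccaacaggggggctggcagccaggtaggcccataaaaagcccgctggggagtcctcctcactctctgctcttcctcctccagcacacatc
Fgb: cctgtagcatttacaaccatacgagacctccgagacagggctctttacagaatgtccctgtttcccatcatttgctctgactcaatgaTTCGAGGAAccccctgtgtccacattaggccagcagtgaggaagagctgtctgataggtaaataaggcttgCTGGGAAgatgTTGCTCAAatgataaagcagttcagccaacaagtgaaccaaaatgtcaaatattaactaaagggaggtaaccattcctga
Crp: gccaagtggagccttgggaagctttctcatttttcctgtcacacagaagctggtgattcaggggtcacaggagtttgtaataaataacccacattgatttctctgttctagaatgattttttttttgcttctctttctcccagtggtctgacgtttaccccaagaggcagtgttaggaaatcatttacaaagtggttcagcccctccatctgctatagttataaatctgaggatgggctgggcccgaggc
The C/EBP letters were found in 7 of the 8 promoters, all but that of Crp, and in 9.56% of the 32851 promoters of the same length. In Orm2 the match is its own reverse complement, so the same 8 bases were counted on each strand. The STAT3 letters and the type II IL-6 element were found in Fgb alone among the 8, against 7.02% and 9.1% of all promoters, and the NF-κB letters in none of the 8, against 4.65%. A match is a description of the letters, and a promoter without one in this window may hold it further away. Variants of the 4 motifs with other letters were not searched, so a window without a match may still hold a related site. The first 50 bases after the RefSeq start of Fgb and of Saa4 were not found in the GENCODE M1 transcripts of these genes, so the start used for these windows is less certain. The RefSeq span of Saa1 also holds transcripts that start further upstream, so most of the Saa1 window lies inside that span. The Saa1 and Saa2 windows were identical in 238 of 251 aligned columns (94.8%), and both carried the same C/EBP letters at nearly the same place, 182 and 183 bases before the start.

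Library sizes lay between 15005277 and 22746138 counts, and 14754 genes passed the filter on low counts, all 10 members among them. Levels are CPM, the counts scaled to library size after TMM normalization. Of the tested genes 129 (0.874%) were called higher and 169 (1.15%) lower in TET1 KO livers, and the median log2 fold change of all tested genes was 0.01. The count of Tet1 was 1, 4 and 1 in the WT livers and 2, 1, 4 and 1 in TET1 KO livers, which is too few to check the genotype. The albumin gene Alb lay between 42646 and 63896 CPM, so this hepatocyte gene was abundant in every library, as the label of hepatic tissue implies. In bulk tissue, fewer cells of a type and less RNA per cell cannot be told apart.

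Per kilobase of exon, the median level over the 7 livers was highest for Hp at 3128 CPM per kb, followed by Hpx at 2292, Fgb at 1693, Orm1 at 636, Saa4 at 318, Saa1 at 183, Crp at 152, Saa2 at 96.9, Orm2 at 52.3 and Lcn2 at 13.3. Hp stood above Hpx, Hpx above Fgb, Orm1 above Saa4 and Orm2 above Lcn2 in all 7 livers. Fgb stood above Orm1 in 6 of the 7 livers, and Saa2 above Orm2 in 6. Saa4, Saa1, Crp and Saa2 could not be placed in a fixed order, since Saa4 stood above Saa1 in 3 livers, Saa1 above Crp in 4 and Crp above Saa2 in 5. In WT replicate 3 Saa1 reached 4948 CPM per kb, more than the 2541 of Fgb in the same liver.

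**Figure D1:**
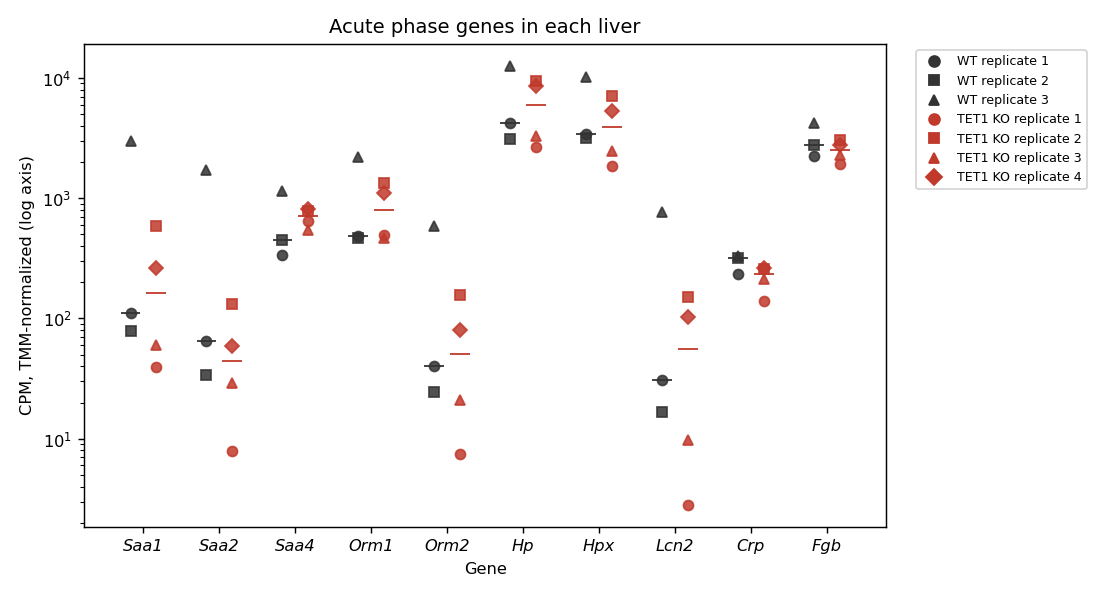
Level of each acute phase gene in each liver, as TMM-normalized CPM on a log axis, with WT livers in black, TET1 KO livers in red, one symbol per replicate and a short line at the group median. WT replicate 3 is the highest point of every gene, and the points of Saa1, Saa2, Orm2 and Lcn2 spread over a wide range within both genotypes, while those of Crp and Fgb stay close together.

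The serum amyloid A genes were examined first. Saa1 (ENSMUSG00000074115, chromosome 7, 46740497 to 46743181) encodes an apolipoprotein of high density lipoprotein that rises steeply in inflammation. Its level was 111, 77.9 and 2994 CPM in the WT livers and 39.1, 582, 59.6 and 264 CPM in the TET1 KO livers. One WT liver stood far above the others, a pair of TET1 KO livers lay between, and the groups overlapped. The median was lower in the WT livers (111 CPM) than in the TET1 KO livers (162 CPM), although the fitted log2 fold change was -2.17 (standard error, SE, 1.17, with a 95% interval from -4.75 to 0.41, adjusted p = 0.258, edgeR). Without WT replicate 3 the log2 fold change of Saa1 was 1.30 (SE 0.87, adjusted p = 0.395, edgeR).

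Saa2 (ENSMUSG00000057465, chromosome 7, 46751833 to 46754313) encodes the close relative of SAA1, and RefSeq lists Saa2 among the older names of Saa1, so that the pair is told apart here by identifier. Its level was 64.4, 33.8 and 1726 CPM in the WT livers and 7.89, 133, 29.1 and 59.1 CPM in the TET1 KO livers. The groups overlapped again, with the highest level in WT replicate 3 and the lowest in TET1 KO replicate 1, a ratio of 219 between them. Saa2 had the smallest p of the 10 members, with a log2 fold change of -3.41 (SE 1.20, 95% interval -6.05 to -0.76, unadjusted p = 0.0163, adjusted p = 0.115, edgeR). Without WT replicate 3 its log2 fold change was 0.20 (SE 0.76, adjusted p = 0.896, edgeR). The GENCODE M1 transcripts of Saa1 and Saa2 were identical in 92.7% of aligned columns and shared 9.17% of their 50-base stretches, so reads may be split between the pair in a way that is not known here.

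Saa4 (ENSMUSG00000040017, chromosome 7, 46727992 to 46732603) encodes the serum amyloid A of resting plasma, which is made constitutively. Its level was 335, 448 and 1158 CPM in the WT livers and 641, 780, 547 and 814 CPM in the TET1 KO livers. The 4 TET1 KO livers lay close together, above WT replicates 1 and 2 and below WT replicate 3. The log2 fold change was 0.10 (SE 0.36, 95% interval -0.69 to 0.90, adjusted p = 0.873, edgeR). Without WT replicate 3 the log2 fold change of Saa4 was 0.81 (SE 0.23, unadjusted p = 0.00571, adjusted p = 0.115, edgeR), so that the call was not made with or without this liver.

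Lcn2 and the orosomucoid genes followed the pattern of Saa1 and Saa2. Lcn2 (ENSMUSG00000026822, chromosome 2, 32384637 to 32387739) encodes lipocalin 2, which binds bacterial siderophores and is made by stimulated hepatocytes as well as by neutrophils. Its level was 30.6, 16.7 and 764 CPM in the WT livers and 2.82, 152, 9.67 and 102 CPM in the TET1 KO livers. The highest liver exceeded the lowest by a factor of 45.9 among the WT mice and of 53.8 among the TET1 KO mice, and the lowest library still held 45 counts. The log2 fold change was -2.03 (SE 1.31, 95% interval -4.91 to 0.86, adjusted p = 0.337, edgeR), and it was 1.47 (SE 1.14, adjusted p = 0.464, edgeR) without WT replicate 3.

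Orm1 (ENSMUSG00000039196, chromosome 4, 63344556 to 63348163) and Orm2 (ENSMUSG00000061540, chromosome 4, 63362449 to 63365877) encode α1-acid glycoproteins, carriers of basic drugs and lipids in plasma. Orm1 had 482, 470 and 2207 CPM in the WT livers and 493, 1340, 468 and 1109 CPM in the TET1 KO livers. WT replicates 1 and 2 and TET1 KO replicates 1 and 3 were all close to the same level, and the other 3 livers stood above them. Its log2 fold change was -0.30 (SE 0.55, adjusted p = 0.746, edgeR), and 0.82 (SE 0.42, adjusted p = 0.276, edgeR) without WT replicate 3. Orm2 had 40.6, 24.4 and 587 CPM in the WT livers and 7.45, 156, 21.0 and 80.8 CPM in the TET1 KO livers. The livers fell in nearly the same order as for Orm1, over a range that was far wider, 78.8-fold for Orm2 against 4.71-fold for Orm1. The log2 fold change of Orm2 was -1.72 (SE 1.07, adjusted p = 0.32, edgeR), and 1.01 (SE 0.88, adjusted p = 0.513, edgeR) without WT replicate 3. The M1 transcripts of Orm1 and Orm2 were identical in 91% of aligned columns and shared 20.4% of their 50-base stretches, which leaves their split of reads uncertain as well.

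The scavengers of free haemoglobin and haem spread over a range close to that of Orm1, 4.75-fold for Hp and 5.55-fold for Hpx. Hp (ENSMUSG00000031722, chromosome 8, 109575128 to 109579172) encodes haptoglobin, which binds haemoglobin. Its level was 4201, 3079 and 12573 CPM in the WT livers and 2647, 9489, 3280 and 8635 CPM in the TET1 KO livers. Hpx (ENSMUSG00000030895, chromosome 7, 105591611 to 105600116) encodes hemopexin, which binds haem, and had 3387, 3137 and 10178 CPM in the WT and 1834, 7034, 2477 and 5342 CPM in the TET1 KO livers. Both genes split the TET1 KO livers in the same way, with replicates 2 and 4 above replicates 1 and 3, and both overlapped between the genotypes. The log2 fold change was -0.14 for Hp (SE 0.57, 95% interval -1.40 to 1.12, adjusted p = 0.895, edgeR) and -0.42 for Hpx (SE 0.53, 95% interval -1.59 to 0.75, adjusted p = 0.637, edgeR). Without WT replicate 3 the log2 fold changes of Hp and Hpx were 0.71 and 0.34. Of 6 genes that clear haemoglobin and haem, 0 were called by edgeR (2.02% of all tested genes) and 1 by DESeq2 (9.14%). An unadjusted edgeR p under 0.05 was found for 1 of the 6 (26.3%), and 1 separated the genotypes (22.5%). This gene was Hmox1, the inducible haem oxygenase, with 22.5, 19.5 and 18.8 CPM in the WT and 6.26, 13.7, 9.36 and 16.3 CPM in the TET1 KO livers. All 4 TET1 KO livers lay below all WT livers, but the call was not made by edgeR (log2 fold change -0.83, SE 0.27, adjusted p = 0.0966) and was made by DESeq2 (adjusted p = 0.0367).

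Fgb and Crp were the steadiest members. Fgb (ENSMUSG00000033831, chromosome 3, 83042246 to 83049863) encodes the β chain of fibrinogen, the precursor of the fibrin clot. Its level was 2262, 2783 and 4177 CPM in the WT livers and 1919, 3033, 2277 and 2793 CPM in the TET1 KO livers, and its log2 fold change was -0.30 (SE 0.27, 95% interval -0.90 to 0.31, adjusted p = 0.504, edgeR). The highest liver was again WT replicate 3, but it exceeded the lowest of the 7 by a factor of only 2.18. Crp (ENSMUSG00000037942, chromosome 1, 172698056 to 172699966) encodes C-reactive protein, a pentraxin that binds phosphocholine. It had 232, 316 and 330 CPM in the WT and 139, 258, 213 and 262 CPM in the TET1 KO livers. WT replicates 2 and 3 were the highest pair, and the groups overlapped through WT replicate 1. The log2 fold change of Crp was -0.42 (SE 0.22, 95% interval -0.91 to 0.06, adjusted p = 0.238, edgeR). Without WT replicate 3 it was -0.35 for Crp and -0.03 for Fgb, and these were the members whose sign stayed negative.

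**Figure D2:**
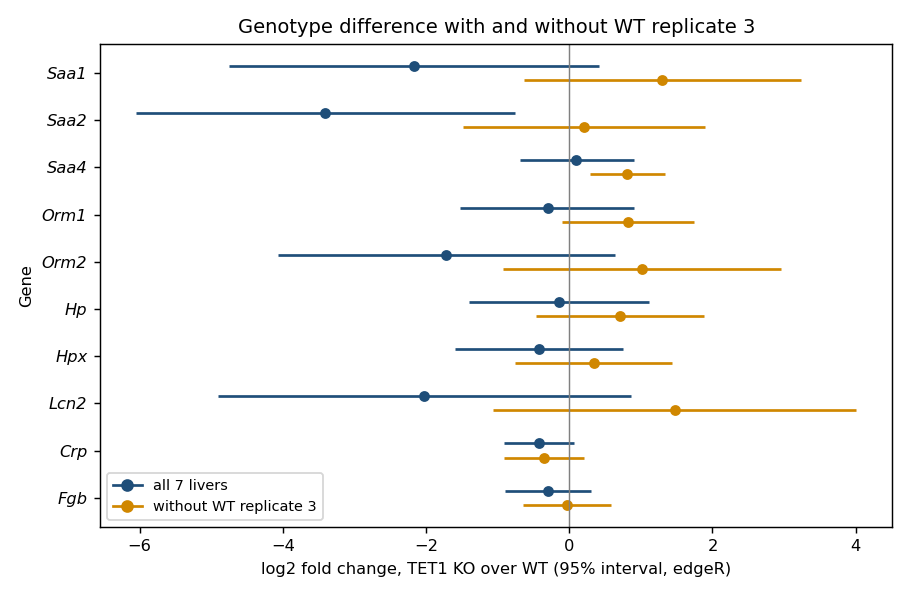
Fitted log2 fold change of each acute phase gene, TET1 KO over WT, with its 95% interval from edgeR, for all 7 livers (blue) and without WT replicate 3 (orange). With all livers 9 of the 10 points lie below 0, and without WT replicate 3 the points of Saa1, Saa2, Orm1, Orm2, Hp, Hpx and Lcn2 move to the other side of 0.

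Counted together, 0 of 10 members were called higher and 0 of 10 lower by edgeR, against 0.874% and 1.15% of all tested genes, or 2.02% in either direction. At an unadjusted p under 0.05 the count was 1 of 10, against 26.3% of tested genes. DESeq2 and limma-trend, of which the latter was added after seeing the data, also called 0 members, where DESeq2 called 9.14% of the genes it tested. DESeq2 gave no p for Saa1 and Saa2, as it does by default for a gene with an outlying library. No member separated the genotypes without overlap, against 22.5% of tested genes. The exact two-sided permutation p of the single members lay between 0.171 for Crp and 0.971 for Hp, where 35 splits of 7 livers allow no p under 0.0286. The median log2 fold change of the members was -0.42 with all livers and 0.76 without WT replicate 3, so the direction of the list rested on this liver.

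The spread among mice of one genotype was measured as the SD of log2 CPM around the genotype means. The median SD was 1.00 over the 10 members and 0.26 over all tested genes, and 8 of the 10 lay above an SD of 0.59, a limit that 90% of all tested genes did not reach. The SD was 2.82 for Lcn2, 2.34 for Saa2, 2.31 for Saa1 and 2.17 for Orm2. It was 1.01 for Orm1, 1.00 for Hp, 0.93 for Hpx, 0.63 for Saa4, and 0.37 for both Crp and Fgb. Among 1234 genes within 2-fold of its mean level none had a wider spread than Lcn2, and among 260 such genes none had a wider spread than Saa1. Of the 36 genes near the level of Hp none was wider, whereas 21 of 64 were wider than Fgb, 110 of 733 wider than Crp and 21 of 235 wider than Saa4. Leaving out WT replicate 3 lowered the median SD of the members from 1.00 to 0.81, where that of all tested genes was 0.27. This median does not describe each member, and the SD of single members without this liver is not given here. WT replicates 1 and 2 lay close together for Saa1 (111 and 77.9 CPM) and Orm1 (482 and 470 CPM). For these genes the spread among the WT livers thus rested on replicate 3.

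**Figure D3:**
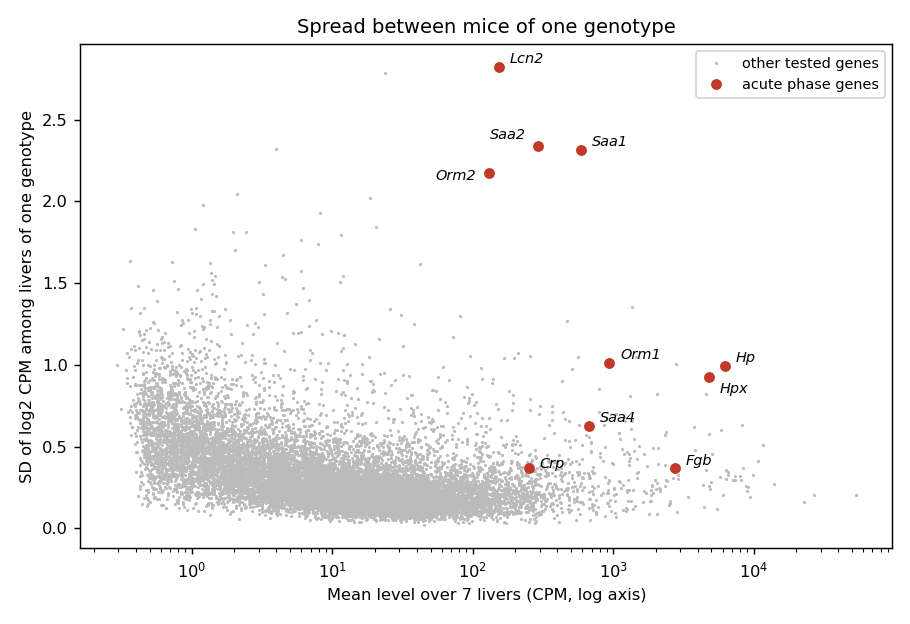
Spread within a genotype (SD of log2 CPM, linear axis) against the mean level over the 7 livers (CPM, log axis), with acute phase genes in red and the other tested genes in grey. Lcn2, Saa2, Saa1 and Orm2 lie above an SD of 2, far over the genes of like level, while Crp and Fgb lie near the bulk.

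The members rose and fell together from liver to liver. WT replicate 3, TET1 KO replicate 2 and TET1 KO replicate 4 held the upper 3 places in 8 of the 10 members, all but Saa2 and Crp, whereas these livers held them in 2.96% of tested genes. In Saa2 the third place went to WT replicate 1, at 64.4 CPM against 59.1 CPM in TET1 KO replicate 4. All 45 pairs of members correlated positively in log2 CPM over the 7 livers, with a median r of 0.93, a lowest r of 0.23 for Saa4 with Crp and a highest of 0.99 for pairs such as Orm2 and Lcn2. These values describe the same 7 libraries throughout, with WT replicate 3 at one end of every gene and TET1 KO replicate 1 at the other end of 8. The summed level of the members was 11145, 10386 and 36695 CPM in the WT livers and 7731, 22956, 9382 and 19462 CPM in the TET1 KO livers.

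Genes outside the 10 members with the most similar pattern were sought by the correlation of log2 CPM over the same 7 livers. For Saa1 these were S100a9 (r = 0.983), S100a8 (0.977), Lrg1 (0.968), Cp (0.963) and Armcx4 (0.956). For Lcn2 they were S100a9 (r = 0.978), Apon (0.977), Tmem176b (0.975), Orm3 (0.974) and Vopp1 (0.972). For Fgb they were Shisa5 (r = 0.986), Slc41a2 (0.968), Itih4 (0.967), C3 (0.962) and Il13ra1 (0.961). S100a8 and S100a9 encode the subunits of calprotectin, Lrg1 and Cp, which encodes ceruloplasmin, are acute phase genes, and C3 encodes the central complement component. Of these, Lrg1 had 276, 294 and 888 CPM in the WT and 279, 554, 306 and 497 CPM in the TET1 KO livers.

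The other positive acute phase genes shared the order of livers in part. WT replicate 3 was the highest liver for 12 of these 15 genes, and TET1 KO replicate 1 the lowest for 9. WT replicate 3 and TET1 KO replicates 2 and 4 held the upper 3 places in 6 of the 15, while WT replicate 2 came second in 5, among them the fibrinogen genes Fga and Fgg. Cd14 and Il1rn were highest in TET1 KO replicate 4. Their median log2 fold change was -0.40 and their median SD within a genotype 0.57, and 0 of 15 were called in either direction by edgeR or DESeq2, with 3 at an unadjusted edgeR p under 0.05, which 26.3% of all tested genes passed. Orm3, the third orosomucoid gene, had 13.3, 9.87 and 63.2 CPM in the WT and 6.32, 41.3, 11.6 and 34.4 CPM in the TET1 KO livers. Lbp, which encodes the lipopolysaccharide binding protein, had 64.0, 80.0 and 185 CPM in the WT and 45, 117, 46.6 and 119 CPM in the TET1 KO livers. Hamp, which encodes the iron hormone hepcidin, had its highest level in TET1 KO replicate 1, with 543, 380 and 665 CPM in the WT and 1221, 636, 928 and 486 CPM in the TET1 KO livers. Saa3, which is made mainly by macrophages and other cells outside the hepatocyte, stayed between 6.08 and 17.9 CPM and was lowest in TET1 KO replicate 4.

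Of 8 negative acute phase genes, 0 were called by edgeR and 2 had an unadjusted p under 0.05 (26.3% of all tested genes). The genotypes were separate in 3, against 22.5% of tested genes in either direction. All 3 were higher in TET1 KO livers, as were 11.7% of tested genes. The median log2 fold change was 0.17, and the median SD within a genotype of 0.27 was close to that of all tested genes. Apoa1, which encodes the main protein of high density lipoprotein, had 6220, 4284 and 5382 CPM in the WT and 14219, 11378, 10185 and 9590 CPM in the TET1 KO livers. All 4 TET1 KO livers exceeded all WT livers, with a log2 fold change of 1.10 (SE 0.32) that was called by DESeq2 (adjusted p = 1.67e-06) and not by edgeR (adjusted p = 0.0818). In WT replicate 3, where all members were highest, 2 of the 8 genes were lowest, Alb and the transthyretin gene Ttr, and 1 was highest, the transferrin gene Trf.

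**Figure D4:**
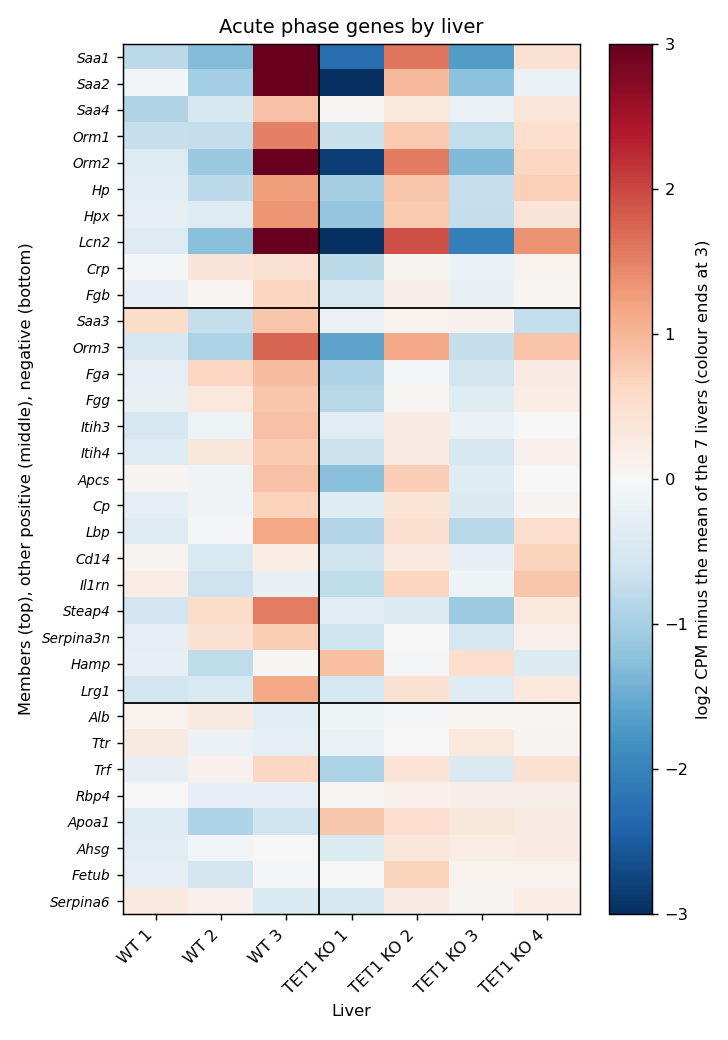
Log2 CPM minus the mean of the 7 livers (colour, ending at 3 in each direction) for the 10 acute phase genes, 15 other positive and 8 negative acute phase genes in each liver. The column of WT replicate 3 is red over nearly all positive genes and that of TET1 KO replicate 1 is mostly blue, while Hamp, Apoa1 and Rbp4 show another order.

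Transcripts of the inducing cytokines were scarce, with Il6 at no more than 2 counts, Osm at no more than 4, Lif at no more than 2, Il11 at no more than 5, and Il22 at 0 counts in all 7 libraries, so a difference was not detectable at this depth. Tnf had 0 to 16 counts, and Il1b had 0.935, 0.663 and 1.93 CPM in the WT and 2.82, 1.97, 0.767 and 3.02 CPM in the TET1 KO livers (adjusted p = 0.258, edgeR). Il1b was thus high in TET1 KO replicate 1, the liver with the lowest level of 8 members. Il1a stayed between 2.25 and 4.75 CPM.

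Of 13 genes of IL-6 and STAT3 signalling, 11 were tested, 0 were called by edgeR and 5 had an unadjusted p under 0.05, against 26.3% of all tested genes. The genotypes did not overlap in 3 of the 11, against 22.5% of all tested genes. DESeq2, with a share of 9.14% called among all genes, called Il6ra (adjusted p = 0.036) and Lifr (adjusted p = 0.00224) higher in TET1 KO livers and none of the list lower. Il6ra, the receptor of IL-6, had 34.3, 53.8 and 47.4 CPM in the WT and 125, 61.5, 56.7 and 79.6 CPM in the TET1 KO livers, and its log2 fold change was 0.84 (SE 0.27, adjusted p = 0.0948, edgeR). The genotypes did not overlap, although the most separate one, TET1 KO replicate 1, had the lowest Saa1. Il6st, which encodes gp130, went the other way without overlap, with 83.6, 101 and 95.1 CPM in the WT and 73.8, 72.6, 68.5 and 78.3 CPM in the TET1 KO livers (log2 fold change -0.35, SE 0.12, adjusted p = 0.112, edgeR). The kinases Jak1 and Jak2 and the phosphatase Ptpn11 had log2 fold changes of -0.29, -0.31 and -0.37, with overlap between the genotypes and adjusted p-values of 0.216, 0.221 and 0.169 (edgeR). Stat3 itself had 44.7, 74.9 and 88.5 CPM in the WT and 51.2, 77.6, 53.7 and 78.4 CPM in the TET1 KO livers (log2 fold change -0.09, SE 0.24, adjusted p = 0.831, edgeR). Socs3, the feedback inhibitor induced by STAT3, had 5.76, 4.77 and 12.1 CPM in the WT and 37.1, 11.8, 7.72 and 9.05 CPM in the TET1 KO livers (adjusted p = 0.205, edgeR). Socs3 was highest in TET1 KO replicate 1, the liver with the lowest level of 8 members, and second in WT replicate 3, where all members were highest.

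Of 13 genes of IL-1 and NF-κB signalling, 0 were called by edgeR and 4 had an unadjusted p under 0.05, a share close to the 26.3% of all tested genes, and DESeq2 called Nfkbia, the inhibitor IκBα, higher (adjusted p = 0.0495, log2 fold change 0.54 by edgeR with adjusted p = 0.0902). The receptor Il1r1 had 38.6, 40.8 and 90.4 CPM in the WT and 74.4, 44.4, 44.6 and 64.9 CPM in the TET1 KO livers. WT replicate 3 was the highest and TET1 KO replicate 1 the second, so this receptor did not follow the order of the members. Among 6 hepatocyte transcription factors of these promoters, 0 were called by edgeR or DESeq2, and 2 had an unadjusted p under 0.05, again against 26.3% of all tested genes. Cebpb had 64.6, 60.7 and 86.2 CPM in the WT and 123, 72.8, 89.5 and 108 CPM in the TET1 KO livers (log2 fold change 0.48, SE 0.19, adjusted p = 0.153, edgeR). Cebpd stayed between 3.59 and 7.45 CPM (log2 fold change -0.15, adjusted p = 0.744, edgeR).

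The summed level of 12 neutrophil markers was 8.27, 3.69 and 44.8 CPM in the WT and 6.14, 14.1, 4.55 and 18.2 CPM in the TET1 KO livers, and 10 of the 12 were highest in WT replicate 3. S100a9 had 16.9 CPM and S100a8 13.3 CPM in that liver, against at most 5.49 and 2.54 CPM elsewhere. Among the defining granule and surface genes, Ngp had 42 counts in WT replicate 3 and 0 to 2 counts elsewhere, Mpo had 25 counts there and 0 in all others but TET1 KO replicate 2, which had 4, and Ly6g had 4 counts there and 0 elsewhere. The others, Ltf and Csf3r, were highest in TET1 KO replicate 4, Ltf with 129 counts against 16 in WT replicate 3 and Csf3r with 5.20 against 4.91 CPM. The part of neutrophils in the levels of Lcn2 and the other members was not tested.

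The summed level of 8 markers of Kupffer cells and macrophages was 229, 206 and 338 CPM in the WT and 156, 260, 179 and 338 CPM in the TET1 KO livers, with 5 of the 8 highest in WT replicate 3 and 3 in TET1 KO replicate 4. The 3 livers with the highest sums were thus the same 3 that held the upper places of 8 members. Hepatocyte markers summed to 63330, 73199 and 50482 CPM in the WT and 52752, 56465, 61224 and 62202 CPM in the TET1 KO livers. Most of this sum is Alb, the only 1 of the 7 markers that was lowest in WT replicate 3, while 5 of the 7 were lowest in TET1 KO replicate 1. Cholangiocyte markers summed to 29.8 to 38.0 CPM in the WT and 46.3 to 68.5 CPM in the TET1 KO livers, lowest in WT replicate 3. Of the 6 cholangiocyte markers 5 were tested, 0 were called by edgeR (2.02% of all tested genes) and 4 had an unadjusted p under 0.05 (26.3%), while DESeq2 called 2, Epcam (adjusted p = 0.0421) and Sox9 (adjusted p = 0.00286), higher in TET1 KO livers (9.14% of all genes called in either direction). Lymphocyte markers summed to 2.98 to 8.88 CPM over the 7 livers. Adipocyte markers summed to 8.20 to 25.2 CPM in 6 livers and to 71.4 CPM in TET1 KO replicate 2, of which Fabp4 made up 52.0 CPM. Adipoq and Plin1 had 60 and 70 counts in that liver, and no other liver had more than 9. Lep went the other way, with 17 counts in WT replicate 2 and 6 in TET1 KO replicate 2. TET1 KO replicate 2, which held the second place in 8 members, thus also had the highest sums of lymphocyte, cholangiocyte and adipocyte markers. By single genes, however, 4 of the 6 cholangiocyte markers were highest in TET1 KO replicate 4 and 2 in replicate 2. The part of these cells in the levels of the members was not tested.

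**Figure D5:**
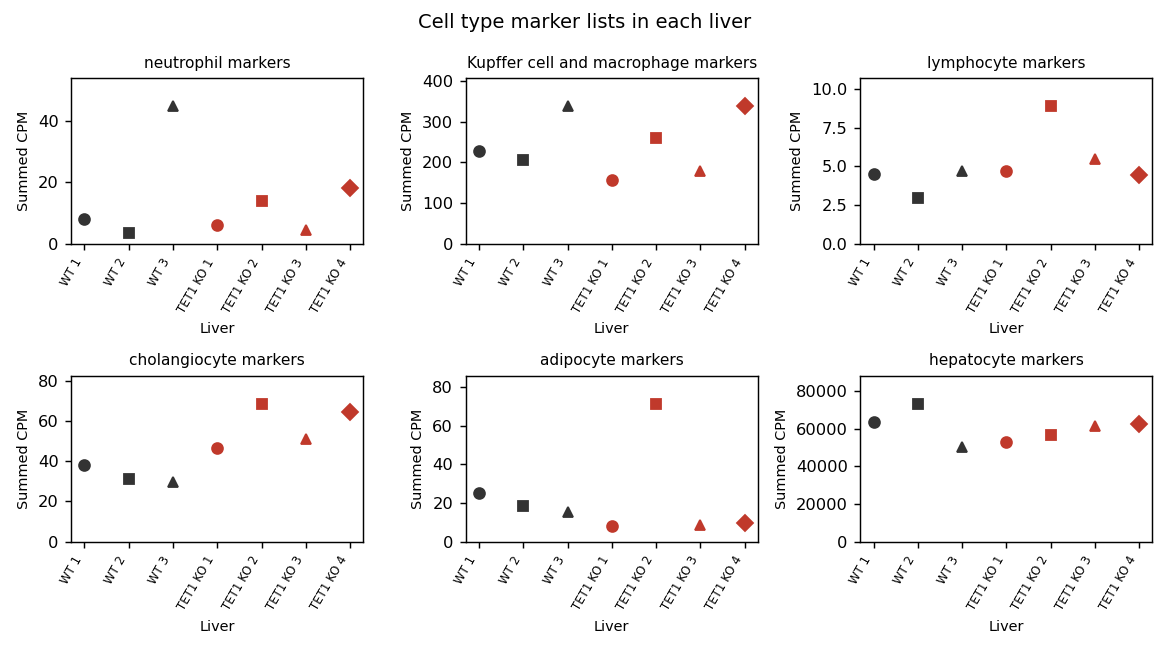
Summed CPM of 6 lists of cell type markers in each liver, with WT livers in black, TET1 KO livers in red and each vertical axis starting at 0. Neutrophil markers are highest in WT replicate 3 at 44.8 CPM, macrophage markers are highest in WT replicate 3 and TET1 KO replicate 4, and adipocyte markers stand out in TET1 KO replicate 2.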

How the data were processed

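RNA sequencing of the liver covered 3 WT and 4 TET1 KO mice on an HFD. For every mouse the authors deposited the raw count of reads on each gene, not normalized, and per the labels' processing notes the reads were trimmed with Trimmomatic 0.36, aligned with GSNAP and counted with featureCounts 1.5.3 on GRCm38. The annotation release and the strand setting of the counting are not given in the sources used here, so antisense, overlapping and near-identical genes remain uncertain. The labels give a stranded kit after poly(A) selection or, alternatively, rRNA removal, without saying which was used, and give no batch or date. Symbols are those of the tables. Up to 26 symbols of a table had been turned into dates, so genes were joined by identifier, and 5 repeated entries were left out.

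The genotypes were compared by the quasi-likelihood test of edgeR 4.0.16 in R 4.3.3 (filterByExpr, TMM, glmQLFit with legacy = FALSE and robust = FALSE) with no covariates. The genes that passed the filter made up 99.88% or more of each library, and edgeR estimated a common biological coefficient of variation of 0.208. The limit for a call was 0.05 on the Benjamini-Hochberg adjusted p across 14754 tested genes. Standard errors come from the F statistic and the size of the fold change, intervals cover 95%, and a prior count of 2 was added for log2 CPM. For single genes, exact two-sided permutation tests enumerated 35 splits of the livers. No set test was run. On simulated counts with known changes, the edgeR fit recovered most of the changed genes in the right direction. The simulation gave all genes the same dispersion and no outlying liver, so it does not bear on genes that spread as widely as Lcn2. Intervals cover the spread between these mice only, and precision is set by 7 libraries of 15005277 to 22746138 counts. No pair of libraries of one genotype agreed within sampling noise (chi-square per degree of freedom of at least 25).

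The genes named by rule are the 10 members, any gene called by edgeR in 13 other lists of pathway genes and cell type markers (there were none), Socs3, Stat3, Cebpb, Cebpd, Il6ra, Il1r1, the cytokine genes, Tet1, and the 5 genes most like Saa1, Lcn2 and Fgb. Further genes of these lists are examples, picked once their values were known. The members and lists were chosen with earlier results of these data known. The alternatives were DESeq2 1.42.0, RLE size factors in edgeR, scaling by library size alone, robust dispersions, a replicate block, no filter on low counts, a minimum of 10 counts per library, a prior count of 0.5 and leaving out each mouse, and limma-trend (limma 3.58.1) was added after seeing the data. Exon lengths and transcripts were those of GENCODE M1 (NCBIM37), used for lengths and identity alone. Gene coordinates and promoters were those of RefSeq (GRCm38.p6). Plots were made in Python 3.11 with matplotlib 3.10.9.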

Additional observations from a re-analysis of the deposited data

Results flagged for a closer look

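Among the 4 TET1 KO livers, a single liver lay far from the other 3 for 11 of 101 genes examined and for 1 of 14 summed lists, by Dixon's test at its 95% critical value, where chance gives about 5.1 of the genes. The groups of 3 WT livers were not tested, and 0 of the 10 members were flagged. The value given is the gap to the nearest liver as a share of the whole range. In TET1 KO replicate 1 these were Socs3 (0.86), which was high, and Il1rap (0.879) and Apoh (0.844), which were low. In TET1 KO replicate 2 they were Fetub (0.861), Fabp4 (0.97), Cfd (0.944) and the summed CPM of the adipocyte markers (0.979), all high. In TET1 KO replicate 3 it was Csf3r (0.83), which was low. In TET1 KO replicate 4 they were Chuk (0.836) and Ikbkg (0.935), which were low, and Krt19 (0.888) and Epcam (0.929), which were high.

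Krt19 and Epcam, markers of bile duct cells, had 6.68 and 4.87 CPM in TET1 KO replicate 4 and at most 1.69 and 0.986 CPM in the other 6 livers. Fabp4, a fatty acid binding protein of adipocytes, had 52.0 CPM in TET1 KO replicate 2 against 7.89 to 22.0 CPM in the others.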

How the results depend on the processing

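No member was called in either direction under any alternative. The count of all genes called was less steady. It was 129 higher and 169 lower, and became 633 and 699 with DESeq2, 245 and 347 with no filter on low counts, and 107 and 312 with library size only, which also moved the split toward lower calls. With the replicate number as a block it was 671 and 656, and the median log2 fold change of the members was -0.58. The deviations of same-numbered livers correlated at 0.21, -0.12 and -0.10, and those of the other pairs at -0.30 to 0.31. These few livers cannot decide whether the numbers pair the mice. TET1 KO replicate 4 has no WT liver of its number in the block fit, and leaving this liver out gave 427 and 464 calls without a block. With one mouse left out, the calls ranged from 16 to 427 higher and from 21 to 464 lower, fewest without WT replicate 2 and most without TET1 KO replicate 4. The counts were 68 and 156 without WT replicate 3, 82 and 105 without TET1 KO replicate 1, 45 and 59 without replicate 2, and 31 and 48 without replicate 3. The cause was not tested. The median log2 fold change of the members ranged from -0.71 to 0.76, and its only positive value came without WT replicate 3. Over the runs that left out one mouse, the log2 fold change ranged from -3.13 to 1.30 for Saa1, -4.25 to 0.20 for Saa2, -0.21 to 0.81 for Saa4, -0.66 to 0.82 for Orm1, -2.58 to 1.01 for Orm2, -0.48 to 0.71 for Hp, -0.80 to 0.34 for Hpx and -2.83 to 1.47 for Lcn2, each with a change of sign. Hp was also positive without TET1 KO replicate 1 (0.11) and replicate 3 (0.06), and Saa4 was negative without WT replicate 1 (-0.21) and replicate 2 (-0.11). Crp and Fgb kept their sign, and no other alternative turned a member. The limma-trend fit, added after seeing the data, gave smaller differences for Saa1 (-1.10), Saa2 (-2.08) and Orm2 (-1.15) on the mean of log2 CPM. The median SD of the members ranged from 0.81 to 1.06 with one mouse left out. Depth did not limit the members, whose lowest count was 45, but it left the cytokine genes near 0 counts.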

Other observations

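Ratios between related acute phase genes were taken within each liver. These 5 ratios were chosen after seeing the data, and their p-values come from exact two-sided permutation tests adjusted over the 5. The ratio of Saa1 to Saa2 was 1.72, 2.30 and 1.73 in the WT livers and 4.95, 4.36, 2.05 and 4.47 in the TET1 KO livers, so that 3 of 4 TET1 KO livers lay above all WT livers (exact permutation p = 0.0857, adjusted p = 0.143). The near identity of both transcripts leaves the split of reads uncertain. The ratio of Hp to Hpx was 1.24, 0.982 and 1.24 in the WT livers and 1.44, 1.35, 1.32 and 1.62 in the TET1 KO livers. All 4 TET1 KO livers lay above all WT livers, at the smallest p these splits allow (exact permutation p = 0.0286, adjusted p = 0.143), and the ratio did not pass the correction.

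The ratio of Fgb to Fga, the gene of the α chain of fibrinogen, was 1.29, 0.85 and 1.02 in the WT livers and 1.73, 1.47, 1.58 and 1.12 in the TET1 KO livers (exact permutation p = 0.0857, adjusted p = 0.143). The ratio of Fgb to Fgg, the gene of the γ chain, was 1.33, 1.13 and 1.19 in the WT livers and 1.73, 1.46, 1.49 and 1.22 in the TET1 KO livers (exact permutation p = 0.114, adjusted p = 0.143). The ratio of Orm1 to Orm2 overlapped widely between the genotypes (exact permutation p = 0.343, adjusted p = 0.343) and was lowest in WT replicate 3 at 3.76 and highest in TET1 KO replicate 1 at 66.2.

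Among all tested genes, those with the widest spread within a genotype after Lcn2 were Cyp26a1 (SD of log2 CPM 2.78), Saa2, Cidea (2.32), Saa1 and Orm2. Cyp26a1 encodes an enzyme that clears retinoic acid, and Cidea a lipid droplet protein. Their mean levels over the 7 livers were 23.9 CPM for Cyp26a1 and 3.98 CPM for Cidea, against 131 to 590 CPM for the 4 members.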
